A study of Mus musculus with 21 samples.

Results

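Chemokines are small secreted proteins that steer leukocytes, and tumour cells are one of their sources. The CXC chemokines Cxcl1, Cxcl2, Cxcl3 and Cxcl5 act on the receptor Cxcr2 and draw neutrophils, while the CC chemokines Ccl2 and Ccl7 act on Ccr2 and draw monocytes. Cxcl12 is the ligand of Cxcr4, Cxcl16 is a membrane-bound ligand of Cxcr6 that proteases can shed, Ccl5 draws T cells and monocytes, and Ccl20 draws Ccr6-bearing cells. In pancreatic tumours these ligands are known for shaping which myeloid cells enter, and many of their genes are classical targets of the transcription factor NF-kB. The RNA of these 10 genes is described here in pancreatic ductal adenocarcinoma (PDAC) cells of the mouse, as 10 of the 34478 genes of a normalized count table, chosen by their symbols.

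The cells were 6 primary lines, numbered #3, #4, #6, #7, #9 and #10, from pancreatic tumours of mice whose alleles included Ptf1a wt/Cre and Trp53 loxP/loxP. In this model Cre is made from the Ptf1a locus, a gene of the pancreatic lineage, and all states shared the same alleles. Parental cells (6 samples) had not seen trametinib, a drug that blocks the kinase MEK (MEKi). Resistant cells (6 samples) were grown in trametinib at 100 times the IC50, the concentration at the midpoint of the dose response, after a stepwise increase of the dose. P5 (3 samples, lines #3, #7 and #9) and P12 (6 samples) came from a batch of resistant cells that had been kept without the drug for 5 or 12 passages. For P5 of lines #7 and #9 the title and the description of the sample differ, the former giving 5 and the latter 12 drug-free passages. Each of the 21 samples was a line in 1 state, so the lines are the replicates, and the study describes resistant cells as grown out from a single clone, which limits what 1 resistant sample stands for. The samples were cultured lines in medium with fetal bovine serum, so chemokine RNA in culture was measured and not the entry of leukocytes.

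Per sample the table summed to 2.86e+07 to 3.71e+07 normalized counts, and the depth behind them was estimated at 24.1 to 42.7 M reads (M for mega). A value that 3 reads would give lay between 2.31 and 4.07 normalized counts depending on the sample, and is called the floor here. It covers counting error only. Genes of the pathway that trametinib blocks fell in resistant cells as a check of the labels. In an ERK output list 12 of 14 genes were lower, where 2.73% of all tested genes were. Examples were Etv4, an ERK-induced transcription factor, with a log2 fold change of −10.46, and Dusp6 with −7.31. In P12 11 of 14 were higher again than in resistant cells, where 1.28% of all tested genes were higher. Between P12 and parental cells limma called 0 of 14 (5 at an unadjusted p under 0.05), but also only 0.114% of all tested genes. The keratins Krt8, Krt18 and Krt19 and the cadherin Cdh1 were present in parental cells, whereas Epcam, a further epithelial marker, was at or under the floor in 20 of 21 samples. The leukocyte marker Ptprc (CD45) stayed between 3.02 and 20.01 normalized counts.

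Cxcl5, Cxcl3, Cxcl1 and Cxcl2 lie in this order in a cluster of 144.6 kb on chromosome 5 (GRCm38.p6, from the start of Cxcl5 at 90759298 to the start of Cxcl2 at 90903899, all on the plus strand), with Ppbp, Pf4 and Cxcl15 between them. Ccl2 (chromosome 11, 82035577 to 82037452) and Ccl7 (82045712 to 82047525) are next to each other, 10.1 kb apart. Ccl5 (83525778 to 83530518) and Cxcl16 (70454389 to 70459984) lie elsewhere on chromosome 11, Cxcl12 on chromosome 6 (117168535 to 117181368) and Ccl20 on chromosome 1 (83116766 to 83119167).

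RefSeq promoters of the same build were at hand for 5 of the 10 genes. The stretch from 120 to 21 bases before the start site is shown for them because it holds matches to a loose NF-kB pattern. The pattern is GGG and CC with any 5 bases between them. Capitals mark each match, on either strand, and a match need not be a site that NF-kB binds.
Cxcl1 (chromosome 5, 90891125 to 90891224, plus strand): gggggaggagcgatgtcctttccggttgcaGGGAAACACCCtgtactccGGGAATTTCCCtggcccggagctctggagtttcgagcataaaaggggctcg
Cxcl2 (chromosome 5, 90903779 to 90903878, plus strand): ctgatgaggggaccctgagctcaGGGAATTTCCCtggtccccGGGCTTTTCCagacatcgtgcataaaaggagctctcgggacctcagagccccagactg
Cxcl3 (chromosome 5, 90785981 to 90786080, plus strand): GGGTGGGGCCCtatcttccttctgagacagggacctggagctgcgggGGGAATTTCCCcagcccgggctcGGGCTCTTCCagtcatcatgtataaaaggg
Cxcl12 (chromosome 6, 117168415 to 117168514, plus strand): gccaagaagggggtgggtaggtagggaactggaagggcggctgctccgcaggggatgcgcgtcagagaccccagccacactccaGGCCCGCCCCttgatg
Ccl20 (chromosome 1, 83116646 to 83116745, plus strand): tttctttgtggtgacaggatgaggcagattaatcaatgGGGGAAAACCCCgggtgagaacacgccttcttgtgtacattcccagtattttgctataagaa

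The loose pattern was present in 5 of these 5 promoters, searched over 250 bases before and 50 bases after the start, and in 50.8% of all 32851 promoters of the table, so it does not set these genes apart. Cxcl1, Cxcl2 and Cxcl3 shared the exact word GGGAATTTCC, beginning 71, 97 and 73 bases before the start. With these 3 included, 29 promoters in the table (0.0883%) held that word. It was looked up because more than 1 of the 5 promoters held it, so its rarity was not tested. The AP-1 word TGANTCA was found in 0 of 5 and in 7.81% of all promoters, and an interferon-stimulated pattern (GAAA, any 2 bases, GAAA) in 0 of 5 and in 3.44%. These are matches of letters, searched on both strands, and overlapping matches were counted as 1 promoter. The cluster genes are also alike in their transcripts: 7.59% of the 31-base words of Cxcl2 transcripts occurred in Cxcl3 and 4.56% of those of Cxcl3 in Cxcl2, so the split of reads between these 2 genes is less certain than for the other 8, where at most 0.871% of the words occurred in any other gene.

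All 10 chemokines passed the filter on low values, 10 or more normalized counts in 3 or more samples, which 19300 genes passed. Levels below are normalized counts, which are not divided by transcript length, so they are compared between samples of a gene and not between genes. Differences are on the scale of log2(normalized count + 1), which understates changes of low genes, and are given with the standard error (SE) of limma, a linear model fitted to all 4 states and all tested genes. A gene was called where the adjusted p was under 0.01 and the log2 fold change exceeded 1 in size. Because the same line was sequenced in several states, the fit with the line as a block is given beside the fit without it wherever the call of a listed chemokine differs. Counts for the other gene lists are without the block unless it is named. They stand beside the shares called over all tested genes. These were 5.3% in resistant against parental cells, 2.13% in P12 against resistant and 0.114% in P12 against parental cells.

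**Figure D1:**
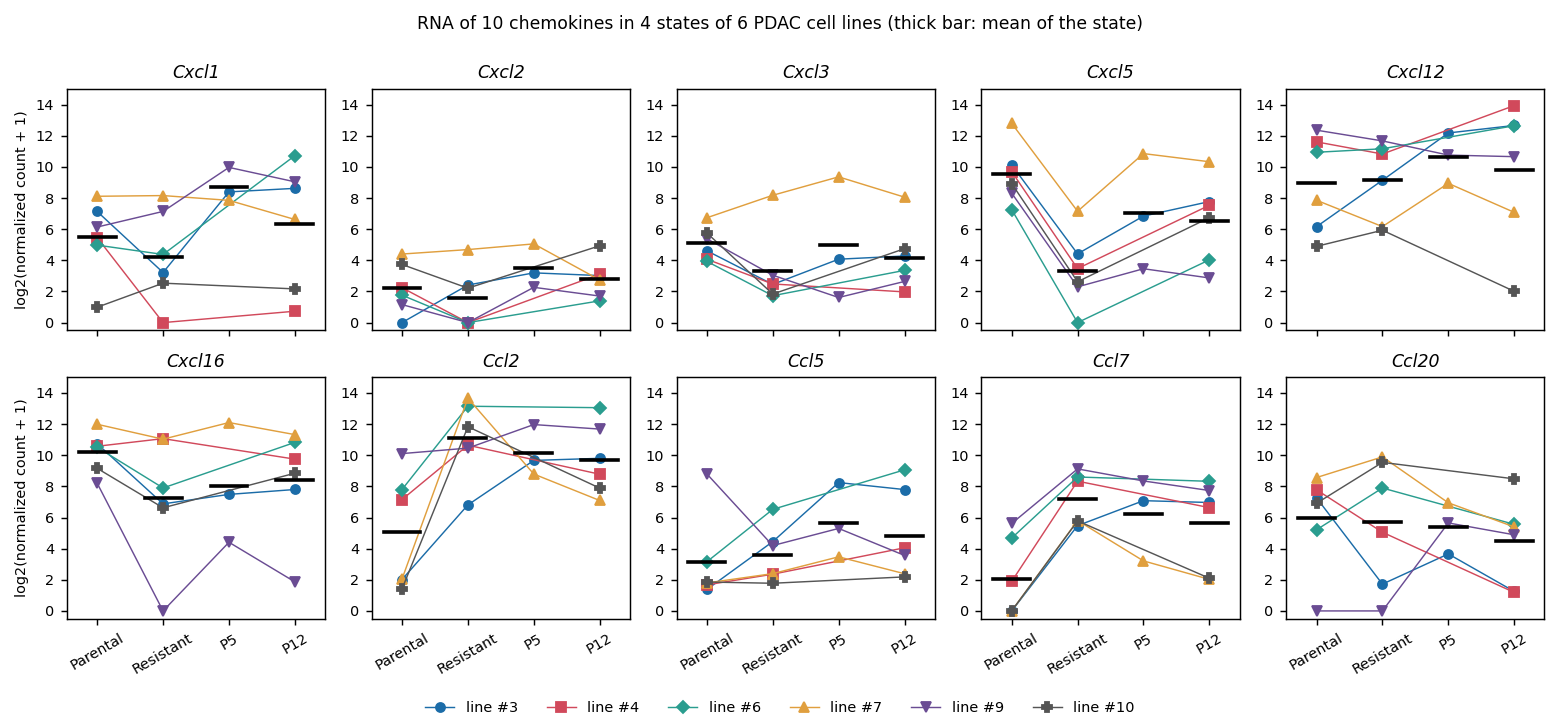
Each panel plots log2(normalized count + 1) of a chemokine (y axis) in parental, resistant, P5 and P12 cells (x axis), with 1 coloured line and symbol per cell line and a thick bar at the mean of each state (n = 6, 6, 3 and 6). Cxcl5 was lower in resistant than in parental cells in all 6 lines while Ccl2 and Ccl7 were higher in all 6, and Cxcl12 and Ccl20 followed no common direction.

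Cxcl5 was the one of the 4 listed neutrophil attractants whose RNA was lower in the resistant state in every line, and it fell to a few percent of the parental level or less. In parental cells its normalized count was 1118 in line #3, 831 in #4, 152 in #6, 7134.5 in #7, 318 in #9 and 487 in #10. In resistant cells it was 20.3 in #3, 10.1 in #4, 0 in #6, 141 in #7, 3.91 in #9 and 5.17 in #10. The lowest parental sample was thus above the highest resistant sample, and the 2 groups did not overlap. The fall was 50.6-fold in line #7, 54.9-fold in #3, 81.4-fold in #9, 82.5-fold in #4, 94.2-fold in #10 and at least 42.4-fold in #6, where the resistant sample was at 0 and the floor was used. The value of resistant line #9 rests on an estimated 3 reads, so its fold had an exact 95% counting interval of 28.6 to 413. The fitted log2 fold change was −6.20 ± 1.38 (SE, n = 6 and 6), with a limma adjusted p of 0.00541, and it ranked 139th by size among the tested genes. With the line as a block the SE was 0.44 and the limma adjusted p 1.34e-06. Cxcl5 was the 1 of 10 chemokines called between resistant and parental cells without the block, where 5.3% of all tested genes were called, 2.57% as higher and 2.73% as lower. It was also the 1 of 10 whose groups did not overlap, against 5.99% of all tested genes. Without line #3, #4, #6 or #10 the adjusted p of Cxcl5 was 0.0299, 0.0269, 0.0183 or 0.0268, above the threshold, at log2 fold changes of −6.31 to −5.98 over all 6 lines left out in turn.

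After drug withdrawal Cxcl5 came back in part. In P12 it was 218 in line #3, 185 in #4, 15.4 in #6, 1289 in #7, 6.30 in #9 and 106 in #10. Each P12 sample was above the resistant and below the parental sample of its line, although the groups overlapped because the lines differ in level. In line #9 P12 held 1.61-fold more Cxcl5 than resistant cells (an estimated 5 and 3 reads, exact 95% counting interval 0.31 to 10.4), whereas the gain was 9.14-fold in #7, 10.7-fold in #3, 18.3-fold in #4 and 20.5-fold in #10. The same line was 50.5-fold below its parental level in P12, against 4.497-fold in #4 to 9.92-fold in #6 for the other lines. The log2 fold change of P12 against resistant cells was 3.22 ± 1.38 (SE, n = 6 and 6), which was not called (limma adjusted p = 0.194) without the block and was called with it (SE 0.44, limma adjusted p = 0.000382). Against parental cells it was −2.98 ± 1.38 (limma adjusted p = 0.311), called with the block (limma adjusted p = 0.00443). That call with the block was lost with the compared states alone (0.0438) and without any 1 of lines #3, #4, #6, #7 and #10 (0.0111 to 0.0298), and the call against resistant cells with the compared states alone (0.0141). In P5 the values were 114 in line #3, 1854 in #7 and 10.0 in #9, which again put line #9 lowest and all 3 lines between their resistant and parental samples. Without the block a comparison with P5 sets 3 lines against 6. The difference of P5 from resistant cells was not called with or without the block (limma adjusted p = 0.0169 and 0.295).

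Ccl2 and Ccl7, the neighbouring genes for monocyte attractants, went the other way. Parental cells held 3.05 normalized counts of Ccl2 in line #3, 141 in #4, 222 in #6, 3.14 in #7, 1102 in #9 and 1.66 in #10. Resistant cells held 111 in #3, 1602 in #4, 9084 in #6, 13000 in #7, 1407.5 in #9 and 3652 in #10. Every line was higher in the resistant state, yet the groups overlapped, because resistant line #3 was below parental lines #4, #6 and #9. In line #9 the difference was 1.28-fold, in #4 it was 11.3-fold and in #6 it was 41.0-fold, while the parental values of #3, #7 and #10 were too near the floor for a fold. On the log2 scale the difference was 6.00 ± 1.497 (SE, n = 6 and 6). The limma adjusted p was 0.0111, just above the threshold, and 0.00236 with the line as a block, where the SE was 1.20. Leaving out line #9 gave a log2 fold change of 7.13 and a limma adjusted p of 0.0053, and with the block the call was lost without line #6, #7 or #10 (limma adjusted p of 0.0107, 0.0111 and 0.0147).

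Ccl7, like Ccl2 a ligand of Ccr2, was also higher in the resistant sample of every line. It was at 0 in parental cells of lines #3, #7 and #10, at 2.72 in #4, at 24.6 in #6 and at 48.1 in #9. Resistant cells held 43.6 in #3, 322 in #4, 388 in #6, 55.0 in #7, 557 in #9 and 54.0 in #10. In parental cells 4 lines were at or under the floor and no resistant line was, and 1 parental sample, line #9, lay above a resistant one. The rise was 11.6-fold in #9, 15.8-fold in #6 and at least 14.5-fold in #3, 23.8-fold in #7 and 22.0-fold in #10. Line #4 had the highest ratio, 118-fold, with an exact 95% counting interval of 39.9 to 577, since its parental value rests on an estimated 3 reads. Its log2 fold change was 5.16 ± 1.32 (SE, n = 6 and 6), with a limma adjusted p of 0.0130, and 0.000104 with the block, where the SE was 0.66. With the block, Cxcl5, Ccl2 and Ccl7 were the 3 of 10 chemokines called between resistant and parental cells, and 10.5% of all tested genes were. They were also the 3 of 10 that moved in the same direction in all 6 lines, as did 18.5% of all tested genes.

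After withdrawal both genes lay above the parental sample in every line, while their path from the resistant state differed between lines. In P12 Ccl2 was 892 in line #3, 439 in #4, 8514 in #6, 136 in #7, 3286 in #9 and 236 in #10. It was lower than in the resistant sample in 4 lines, by 95.9-fold in #7, 15.5-fold in #10, 3.65-fold in #4 and 1.07-fold in #6, and higher in #3 (8.01-fold) and #9 (2.33-fold). Ccl7 in P12 was 124 in #3, 98.5 in #4, 320 in #6, 3.07 in #7, 212 in #9 and 3.28 in #10. It too was farthest below the resistant sample in lines #7 (17.9-fold, exact 95% counting interval 5.80 to 89.4) and #10 (16.5-fold) and above it only in #3 (2.84-fold), the P12 values of #7 and #10 being a few reads. The log2 fold change of P12 against resistant cells was −1.38 ± 1.497 for Ccl2 and −1.56 ± 1.32 for Ccl7, and neither was called with or without the block (limma adjusted p of 0.499 and 0.143 with it).

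Against parental cells P12 was higher in 6 of 6 lines for both genes. For Ccl7 in lines #7 and #10 this rested on 3.07 and 3.28 normalized counts against 0, which is 1.33- and 1.34-fold over the floor. The log2 fold change was 4.63 ± 1.497 for Ccl2 (limma adjusted p = 0.146, with the block 0.0401) and 3.60 ± 1.32 for Ccl7 (limma adjusted p = 0.202, with the block 0.0113), so neither passed 0.01 in either fit. In P5 Ccl2 was 813 in line #3, 442 in #7 and 4015 in #9, and Ccl7 was 135, 8.27 and 325. All 3 lines were above their parental sample for both genes, and the differences were not called (limma adjusted p of 0.376 for Ccl2 and 0.405 for Ccl7). The 3 comparisons of parental, resistant and P12 cells share samples, so their values are not independent of each other.

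Called shares after withdrawal were low for chemokines and for genes at large. Between P12 and resistant cells 0 of 10 chemokines were called, as were 2.13% of tested genes, and with the block 1 of 10 (Cxcl5) and 4.52%. At an unadjusted p under 0.05, limma without the block gave 3821 genes, and Cxcl5 was the 1 chemokine among them. Between P12 and parental cells 0 of 10 and 0.114% were called without the block (2953 genes at an unadjusted p under 0.05, with Cxcl5, Ccl2 and Ccl7 among them), and 1 of 10 (Cxcl5) and 0.523% with it. One chemokine of 10 (Cxcl5) moved the same way in all 6 lines from resistant to P12, as did 16% of tested genes, and 3 of 10 (Cxcl5, Ccl2 and Ccl7) did so from parental to P12, as did 13.4%. For P5, 0 of 10 chemokines and 0.378% of genes were called against resistant cells, and 0 of 10 and 0.0259% against parental cells (2976 and 2003 genes at an unadjusted p under 0.05). Cxcl1 and Cxcl5 were among the former and Ccl2 and Ccl7 among the latter. Between P12 and P5 limma called 0% of the genes, with 130 at an unadjusted p under 0.05, none of them a listed chemokine.

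**Figure D2:**
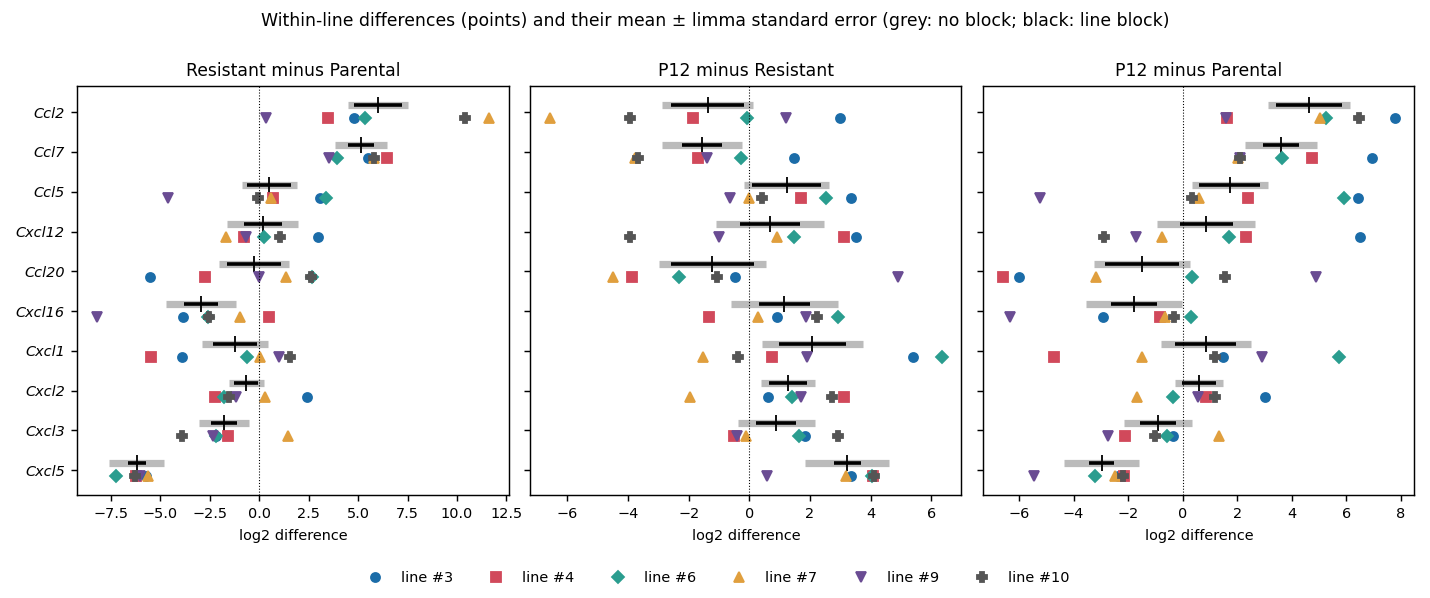
Each panel plots the difference of log2(normalized count + 1) between 2 states of the same line (x axis) for the 10 chemokines (y axis), 1 symbol per line, with the mean as a tick and its limma standard error without the block (grey bar) and with the line as a block (black bar). For Cxcl5 the 6 lines lay between −7.26 and −5.65 from parental to resistant cells, whereas for Ccl2 they ran from 0.35 in line #9 to 11.62 in line #7.

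Cxcl3, Cxcl1 and Cxcl2, which lie in the same cluster, were not lower in the resistant state of every line as Cxcl5 was. Cxcl3 was lower in resistant cells in 5 of 6 lines. In parental cells it was 23.5 in line #3, 15.8 in #4, 14.3 in #6, 105 in #7, 40.9 in #9 and 53.2 in #10, and in resistant cells 4.47, 4.58, 2.31, 289, 7.24 and 2.56 in the same order. Line #7 stood apart from the others and was the only one with more Cxcl3 in the resistant state. Its log2 fold change was −1.80 ± 1.26 (limma adjusted p = 0.371, with the block 0.058). In P12 Cxcl3 was highest in line #7 again (265) and between 2.92 and 25.9 in the others, and in P5 it was 657 in line #7, 15.8 in #3 and 2.06 in #9.

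Cxcl1, in the mouse often called KC, split the lines. Parental cells held 140 in line #3, 42.9 in #4, 30.5 in #6, 276 in #7, 69.4 in #9 and 0.98 in #10, and resistant cells 8.29, 0, 19.8, 285, 140 and 4.79. In the resistant state 3 lines were lower and 3 higher, the largest falls being 16.9-fold in #3 and at least 10.5-fold in #4. In P12 the order of the lines had changed, with 1690 in #6, 527 in #9, 393 in #3, 97.6 in #7, 3.48 in #10 and 0.66 in #4. Line #6 thus held 85.5-fold and line #3 47.4-fold more Cxcl1 than in the resistant state, while line #4 remained at or under the floor. In P5 Cxcl1 was 336 in #3, 230 in #7 and 1001 in #9. None of the comparisons called Cxcl1, and the log2 fold change of P12 against resistant cells was 2.08 ± 1.66 (limma adjusted p = 0.544). Cxcl2 stayed low throughout, at most 32.3 normalized counts and at or under the floor in 8 of 21 samples, so that differences of a few reads would not have been detectable. Its highest values were 32.3, 24.8 and 20.2 in P5, resistant and parental cells of line #7 and 29.6 in P12 of line #10.

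Cxcl16 was lower in resistant cells in 5 of 6 lines, and its range between lines was wide. Parental cells held 1711 in line #3, 1527 in #4, 1459 in #6, 4070 in #7, 294 in #9 and 571 in #10, and resistant cells 117, 2145, 238, 2094, 0 and 97.7. Line #4 was the exception, with 2145 against 1527, whereas line #9 went from 294 to 0. The fit gave a log2 difference of −2.95 ± 1.76, which was not called (limma adjusted p = 0.282 without and 0.0178 with the line as a block). In P12 the values were 222, 861, 1816, 2565, 2.65 and 459, with line #9 lowest, and in P5 178 in #3, 4393 in #7 and 20.3 in #9.

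Cxcl12 depended on the line far more than on the state. It was highest in parental cells of line #9 (5258), #4 (3122) and #6 (1965) and lower in #7 (231), #3 (70.5) and #10 (28.8). Resistant cells held 564 in #3, 1818 in #4, 2296 in #6, 70.9 in #7, 3263 in #9 and 60.1 in #10, so 3 lines were higher and 3 lower. In P12 it reached 15720 in #4, 6488 in #3 and 6414 in #6, against 1616 in #9, 135 in #7 and 3.02 in #10. The gain of line #3 was already seen in P5, with 4646 normalized counts. The log2 fold changes of resistant against parental cells (0.18 ± 1.79) and of P12 against parental cells (0.86 ± 1.79) were within 1 SE of 0, and both changed sign when line #3 was left out.

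Ccl5 was near the floor in parental cells, at 1.599 to 7.92 normalized counts, apart from line #9 with 446. Resistant cells held 20.9 in #3, 4.13 in #4, 91.0 in #6, 4.26 in #7, 17.4 in #9 and 2.43 in #10. In P12 it was 221 in #3 and 534 in #6 and between 3.55 and 15.6 in the other lines, and in P5 303 in #3, 10.1 in #7 and 38.4 in #9. Lines #3 and #6 were thus higher in every later state than in the parental one, and line #9 lower. Over the 6 lines the log2 fold change of P12 against parental cells was 1.73 ± 1.39 (limma adjusted p = 0.574).

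Ccl20 had no common direction either. Parental cells held 153 in line #3, 219 in #4, 36.1 in #6, 378 in #7, 0 in #9 and 120 in #10, and resistant cells 2.30, 32.2, 237, 951, 0 and 745. Lines #3 and #4 were lower and #6, #7 and #10 higher in the resistant state, and line #9 was at 0 in both. In P12 it was lower than in the resistant state in 5 of 6 lines, at 1.38, 1.28, 46.2, 41.1 and 357 in lines #3, #4, #6, #7 and #10, and line #9 was higher with 28.7. In line #3 both values were at or under the floor, an estimated 2 reads each, so its direction is not certain. The log2 fold change of P12 against resistant cells was −1.22 ± 1.76 (limma adjusted p = 0.772).

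The balance of line and state was taken from the sums of squares of the 18 parental, resistant and P12 samples. For Cxcl5 the state made up 58.1% of the variance, the line 38.7% and the rest 3.19%. For Ccl7 the shares were 49.4% for the state and 41.5% for the line, and for Ccl2 48.6% and 26.1%, with a larger rest of 25.2%. The state made up between 1.34% (Cxcl12) and 14.9% (Cxcl16) for the other 7, whose line shares ran from 46.5% (Ccl5) to 78.8% (Cxcl12). The median over all tested genes was 19.8% for the state and 35.8% for the line. All 10 varied more than most genes, with total SDs at the 77.9th (Cxcl2) to the 98.7th percentile (Ccl2) of the tested genes.

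**Figure D3:**
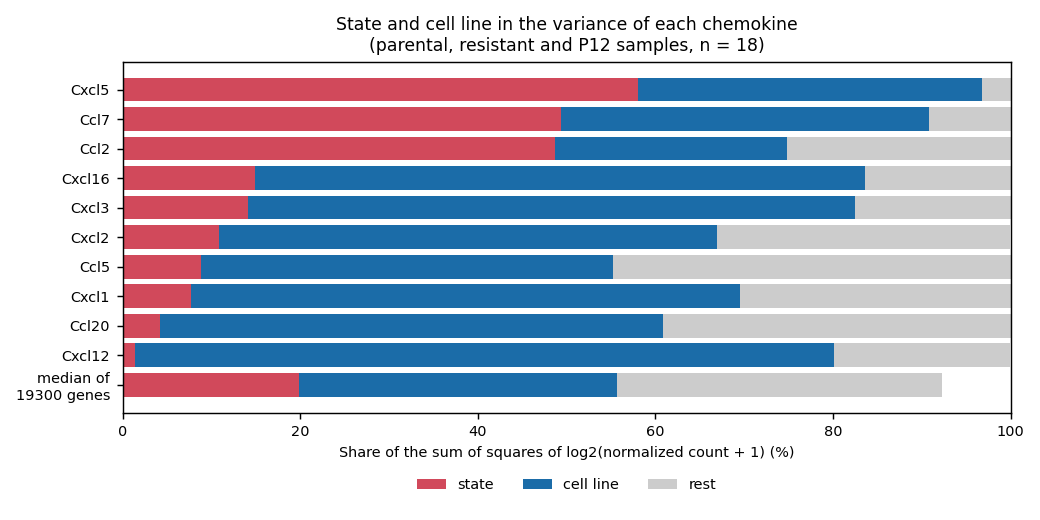
Bars split the sum of squares of log2(normalized count + 1) of each chemokine over 18 samples into shares (x axis, percent) of the state, the cell line and the rest, with the medians of the 3 shares over 19300 genes at the bottom, which need not add up to 100%. State shares were 58.1%, 49.4% and 48.6% for Cxcl5, Ccl7 and Ccl2 and at most 14.9% for the other 7.

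Across the 21 samples, which share 6 lines and 4 states, Ccl2 and Ccl7 moved together (Pearson r = 0.86, Spearman rho = 0.82, r = 0.74 after the mean of each state was taken off). Cxcl5 ran against Ccl7 (r = −0.82, −0.71 after state means) and against Ccl2 (r = −0.71, −0.51 after state means). Cxcl3 and Cxcl5 ran in parallel (r = 0.76, 0.80 after state means), while Cxcl1 had little relation to Cxcl5 (r = 0.10). Cxcl12 ran with Ccl7 (r = 0.64, 0.82 after state means) and against Ccl20 (r = −0.66). These are descriptions without a test, since samples of a line are not independent.

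**Figure D4:**
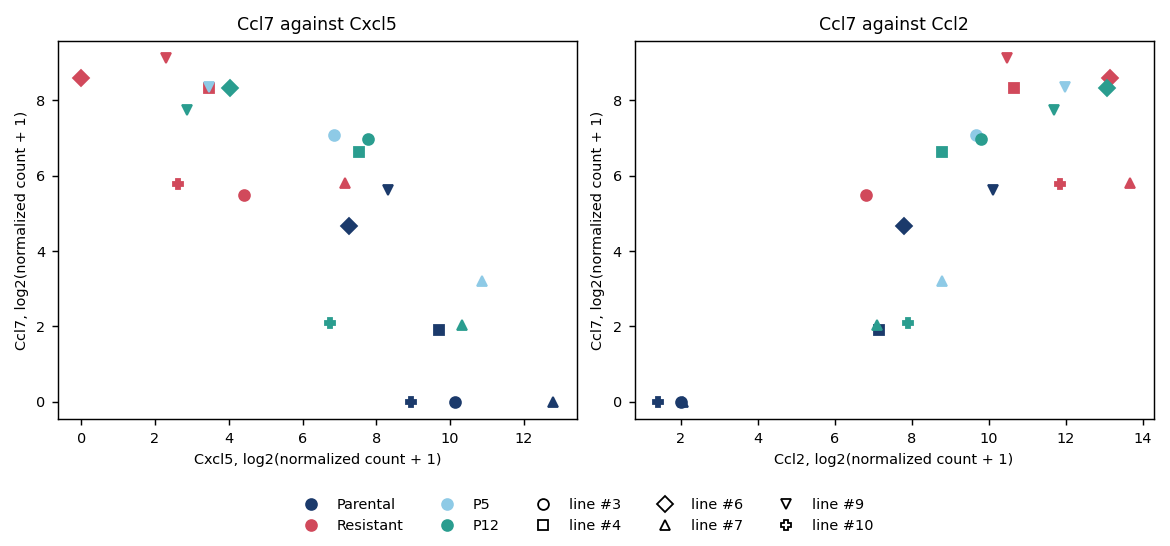
Each symbol is 1 of 21 samples, coloured by state and shaped by cell line, with Ccl7 on the y axis and Cxcl5 (left) or Ccl2 (right) on the x axis, all as log2(normalized count + 1). Samples high in Cxcl5 were low in Ccl7 (r = −0.82), and Ccl7 rose with Ccl2 (r = 0.86).

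Among all tested genes, those whose profile over the 21 samples was most like that of Cxcl5 were led by Mlph (r = 0.93) and Sytl5 (0.93). For Ccl2 they were Dclk1 (0.89), Lrrc75b (0.87) and Wisp1 (0.86), and for Ccl7 Palm2 (0.93), Ust (0.92) and Olfml3 (0.92). Cxcl16 was most like the keratin gene Krt18 (0.93), Cxcl12 like Colec12 (0.89), Galnt18 (0.85) and the matrix metalloproteinase Mmp2 (0.82), and Ccl5 like the interferon-induced gene Ifit1 (0.91). Cxcl3 was most like Chrna1 (0.88), Ccl20 like Sorbs2 (0.86), Cxcl1 like Tfam (0.84) and Cxcl2 like Gsto2 (0.74). These genes were taken from the 3 best of 19300 for each chemokine, so some likeness of this size comes with the search.

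Some cell type markers also differed between resistant and parental cells. Without the block 5.3% of all tested genes were called there, and 10.5% with it. The block raised the calls to 6 lower epithelial, 3 higher fibroblast and 2 lower leukocyte markers, and the counts below are without it. In the list of 9 epithelial markers, 3 of 8 tested genes were lower in resistant cells (Cldn4, Muc1 and Sox9, the log2 fold change of Sox9 being −3.06), and the sum of the list ran from 18448 to 2.95e+05 in parental and from 1821 to 2.11e+05 in resistant cells. In the fibroblast list, 1 of 8 tested genes was higher (Dcn, a matrix proteoglycan, with a log2 fold change of 11.003), and the sum of 9 genes ran from 109 to 25135 in parental, from 1903 to 5.78e+05 in resistant and from 230 to 1.56e+05 in P12 cells, while Lum was at or under the floor in 19 of 21 samples. In the leukocyte list 1 of 7 tested genes was called and was lower (Cd14, log2 fold change −5.46), with sums of 1298 to 3790 in parental and 224 to 2929 in resistant cells. Cd3e was at or under the floor in 19 of the 21 samples. In the mesenchymal list Cdh2 was the 1 of 7 that was higher, with a log2 fold change of 1.77. Among the 4 tested genes of the endothelial list Tek had a log2 fold change of 5.90. Tek passed the filter only through the resistant samples, since elsewhere it reached 10 normalized counts in parental line #3 alone (15.8). No call is therefore reported for Tek. Of the acinar and islet list, 1 of 5 genes was tested and it was not called. Their part in the chemokine differences was not tested, and in bulk RNA fewer cells of a type and less RNA per cell cannot be told apart.

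Of the 28 other chemokines listed, 24 were in the table and 15 passed the filter. Ppbp, the neighbour of Cxcl5, was lower in resistant cells (log2 fold change −3.04 ± 0.54, limma adjusted p = 0.00102), at 4.01 to 34.6 normalized counts in parental cells and at 0 in 5 of 6 resistant samples. Cx3cl1, a membrane-bound ligand of Cx3cr1, was lower as well (−3.45 ± 0.76, limma adjusted p = 0.00493). Ccl25, a ligand of Ccr9, was higher (1.05 ± 0.25, limma adjusted p = 0.00954). The list thus counted 1 higher, 2 lower (Ppbp among them) and 12 not called, with a median log2 fold change of −0.26 against −0.0049 over all tested genes. Ppbp (2.63) and Cx3cl1 (3.61) were higher again in P12 than in resistant cells, and limma called 0 of 15 between P12 and parental cells (4 at an unadjusted p under 0.05). Of the genes next to Ccl2 and Ccl7, Ccl8 and Ccl1 did not pass the filter, Ccl11 reached at most 41.7 normalized counts (P12 of line #6), and Ccl12 was not analysed here. Cxcl15, inside the Cxcl5 cluster, was between 3.02 and 34.5 in parental cells and reached 9321 in P12 of line #6 and 1332 in P12 of line #4.

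Receptors for these ligands were scarce. Of 23 receptors, 22 were in the table and 9 passed the filter, and limma called 0 of 9 in the 3 comparisons of parental, resistant and P12 cells without the block. At an unadjusted p under 0.05 there were 2 in resistant against parental cells, 2 in P12 against resistant cells and 1 in P12 against parental cells. Cxcr2, the receptor of the Cxcl5 group, lay between 2.39 and 45.0 normalized counts, Ccr2, the receptor of Ccl2 and Ccl7, between 1.51 and 43.9, and Cxcr1 and Ccr6 were at or under the floor in 21 of 21 samples. Cxcr4 was at most 36.5 (parental line #9), whereas Ackr3, a scavenging receptor of Cxcl12, reached 2332. Ackr2, a decoy receptor that takes up inflammatory CC chemokines, was 0 in 5 of 6 parental samples and 0.57 in the other one, and in resistant cells 18.6 in #4, 24.9 in #6, 63.0 in #9, 6.51 in #10, 0.75 in #7 and 0 in #3. Its log2 fold change was 3.01 ± 0.78. Ackr2 passed the filter only through the resistant samples of #4, #6 and #9, so no p-value is given for this difference.

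Of 25 NF-kB subunits, kinases and inhibitors, limma called 0 without the block in resistant against parental cells, in P12 against resistant cells and in P12 against parental cells (10, 5 and 2 at an unadjusted p under 0.05), with a median log2 fold change of 0.45 in the first. With the block 3 of 25 were called there, beside 10.5% of all tested genes, so the count does not set this list apart. Nfkbiz, an inducible nuclear cofactor of NF-kB, was lower (−1.81 ± 0.54, limma adjusted p = 0.00137 with the block and 0.0281 without), as was Ikbkg (−1.23), while Tnip1 was higher (1.14). Of 24 cytokines and their receptors, 20 passed the filter. Csf2 (GM-CSF) was lower in resistant cells (−4.77 ± 0.94, limma adjusted p = 0.00231), at 10.7 to 53.7 normalized counts in parental cells and at 0 in 5 of 6 resistant samples. Il34, a ligand of Csf1r, was lower too (−3.84), and Il1rap (2.60), Il6st (1.84) and Il17rc (1.32) were higher, which left 15 of 20 not called without the block. With the block 5 genes of this list were higher and 4 lower, where 10.5% of all tested genes were called. Il1r1, the receptor of interleukin 1, a strong inducer of chemokines, was higher in P12 than in resistant cells (2.50 ± 0.54, limma adjusted p = 0.00844), and 1 gene of the list was lower. Among all tested genes 2.13% were called there. The median of Il1r1 was 1531 in parental, 387 in resistant and 2242 in P12 cells. Il1a, Il1b, Il6 and Tnf, the classical inducers or companions of chemokine genes, did not pass the filter and were at or under the floor in 18, 20, 13 and 18 of 21 samples.

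Of 16 interferon regulatory factors, STATs and their inhibitors, 1 was called between P12 and resistant cells, as were 2.13% of all tested genes. Irf8 was higher in P12 cells (5.09 ± 1.07, limma adjusted p = 0.00717), at 9.54 to 317 normalized counts in 5 lines against 0 to 5.58 in the same resistant lines, and it was at 0 in both states of line #6. Of 6 genes of chemokine processing and shedding, limma called 0 without the block in resistant against parental, P12 against resistant and P12 against parental cells (2, 4 and 2 at an unadjusted p under 0.05). Dpp4, a peptidase that clips Cxcl12 and other chemokines at their amino end, was higher in resistant cells in 5 of 6 lines, from 3.39 to 62.4 normalized counts in parental cells to 9066 in #3, 8262 in #4, 5908 in #6, 1014 in #10, 12.6 in #7 and 4.43 in #9. Its log2 fold change of 5.34 ± 1.90 had a limma adjusted p of 0.0629, and 0.00495 with the block.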

How the data were processed

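RNA of 21 samples of 6 PDAC lines in 4 states was analysed. Per the labels and the study's methods, stranded mRNA libraries were sequenced, reads were trimmed with Skewer, transcripts were quantified with Salmon 0.12 on mm10, and counts were summed to genes with TXImport and normalized with DESeq2 1.18. CASAVA 2.17 and bcl2fastq 2.19 are named in the submitters' processing notes. The authors deposited these normalized counts, a signal unit and not whole reads, so tests for whole reads were not run and depth was estimated from the spacing of low values (61.1% to 75.5% of them lay within 0.05 of a whole step). Samples were not assigned to a sequencer model, so no comparison within sequencers was made. No column of another sample was in the table.

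Groups came from the titles of the samples. Values were tested as log2(value + 1) with limma 3.58.1 in R 4.3.3 (trend, 1 fit of all 4 states without a covariate, Benjamini-Hochberg over 19300 genes with at least 10 in at least 3 samples). Genes were called where the adjusted p was under 0.01 and the log2 fold change exceeded 1 in size. P-values set a difference of state means against the spread between lines within a state. With the block they set it against the spread left after the line means are removed. Pairing comes from the cell line, since same-numbered samples are the same line. Deviations from the state means correlated at a mean r of 0.24 for the same line in resistant and parental cells, 0.46 in P12 and resistant and 0.32 in P12 and parental cells, and at −0.05, −0.09 and −0.06 for different lines. Alternatives were the line as a block, pseudocounts of 0.5 and 8, no filter or a mean of at least 100, upper quartile scaling, no trend, an adjusted p below 0.05, the compared states alone and each line left out. The same pseudocounts, states alone and lines left out were also run with the block, which was decided after seeing the data.

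The 10 chemokines, the gene lists and the tests were chosen with earlier results of these data known. The text names all 10 chemokines, from each list the called genes of largest change, the 3 genes most alike to each chemokine, and neighbours in a gene cluster. Dusp6, Il6st, Il17rc, Cxcr2, Ccr2, Cxcr1, Ccr6, Cxcr4, Ackr3, Ackr2, Nfkbiz, Ikbkg, Tnip1, Dpp4, Il1a, Il1b, Il6 and Tnf were named after their values were seen. Lists were written from general knowledge, and some of their genes and 1 allele of the mice are not reported here. Steps were tested on simulated data. Promoters, positions and transcript words came from RefSeq and GENCODE on GRCm38.p6, with pandas 2.3.3, numpy 2.4.6, scipy 1.17.1 and matplotlib 3.10.9 under Python 3.11.15.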

Additional observations from a re-analysis of the deposited data

Results flagged for a closer look

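In 3 of 30 groups of 6 samples a chemokine had 1 sample far from the others by Dixon's criterion on the log2 scale, where chance alone flags about 1 in 20 groups. Cxcl3 in resistant cells was highest in line #7 at 288.63 normalized counts, the next value being 7.24. Cxcl16 in P12 was lowest in line #9 at 2.65, the next value being 222. Ccl5 in parental cells was highest in line #9 at 446, the next value being 7.92.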

How the results depend on the processing

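Leaving out single lines put the called genes between 450 and 1237 in resistant against parental cells (1023 with all lines; fewest without #6, 506 without #3, 468 without #4 and 501 without #10), between 132 and 467 in P12 against resistant cells (412; 153 without #3, 132 without #4, 195 without #6, 259 without #7 and 161 without #10), between 4 and 68 in P12 against parental cells (22) and between 23 and 48 in P5 against resistant cells (73), with each of the 6 lines moving the last 2 by over 1.5 times, and between 1 and 5 in P5 against parental cells (5; 2 without #3, 3 without #6 and 1 without #7). The count of called chemokines in resistant against parental cells lay between 0 and 2. The log2 fold changes that changed sign ranged from −0.38 to 0.55 for Cxcl12, from −0.066 to 1.53 for Ccl5 and from −0.86 to 0.78 for Ccl20 in resistant against parental cells, and in P12 against parental cells from −0.13 to 1.97 for Cxcl1 and from −0.27 to 1.61 for Cxcl12.

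With the cell line as a replicate block, which pairs the states, 2017 genes and 3 chemokines were called in resistant against parental cells, 872 and 1 in P12 against resistant cells, 101 and 1 in P12 against parental cells and 118 genes in P5 against resistant cells, and the block changed no other call of a listed chemokine. In that fit, leaving out a line gave 1144 to 1989, 406 to 810 and 10 to 217 genes in the first 3 comparisons, and 0 to 1 chemokines in P12 against parental cells, where Cxcl5 kept its call without line #9 and lost it without any of the other 5 (limma adjusted p 0.0111 to 0.0298). The compared states alone with the block gave 722, 291 and 3 genes, and 0 chemokines in P12 against resistant and in P12 against parental cells (limma adjusted p of Cxcl5 0.0141 and 0.0438), with Ccl2 at 0.0278 in resistant against parental cells. A pseudocount of 0.5 with the block gave 2 chemokines in P12 against parental cells, Ccl7 being added at 0.00995.

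Without the block, an adjusted p below 0.05 called 2190, 947, 116, 376 and 9 genes in the 5 comparisons in the order above, and 3 chemokines in the first. The compared states alone called 93 genes in P12 against resistant cells, 12 in P12 against parental cells, 14 in P5 against resistant cells, 1 in P5 against parental cells and 1 in P12 against P5. The filter on a mean of at least 100 gave 2 chemokines in resistant against parental cells, Ccl2 being added at a limma adjusted p of 0.00893, 5 genes in P12 against parental cells and 3 in P5 against parental cells, and it left Cxcl2 untested. Upper quartile scaling moved the median log2 difference over all genes to 0.11 in P12 and 0.13 in P5 against resistant cells. The cause of these shifts was not tested. Over the fold changes of single chemokines, 548 recomputed values kept direction and side of the threshold, 15 lost and 9 gained the call, and 7 changed sign.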
